A study of Rattus norvegicus with 40 samples.

Results

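Liver nodules of rats given the carcinogen diethylnitrosamine (DEN) for 14 weeks were compared with the non-tumoral (NT) liver around them. The comparison was made within each animal, and the 12 libraries used were all those of the series taken at 14 weeks from DEN-treated rats, out of 40 libraries from 24 rats. They came from 4 male Fischer 344 rats named F06, H21, H22 and H23, each giving 1 piece of NT liver and 2 nodules (T1 and T2, here nodule 1 and nodule 2). DEN was injected intraperitoneally at 50 mg/kg once a week from the age of 7 weeks, so the NT liver had received the same carcinogen as the nodules. Untreated rats of the same age (H09 to H12, 1 library each) gave the level without DEN. The same 2 tissues from 4 other rats (F03, H25, H26 and H28), which had 14 weeks of DEN and then 6 weeks without it, gave a second, later comparison at 20 weeks.

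DEN is activated by cytochrome P450 enzymes of the hepatocyte and alkylates DNA. In the rat it gives rise first to small foci of altered hepatocytes and later to nodules and hepatocellular carcinoma. Altered foci are known for placental glutathione S-transferase (Gstp1) and gamma-glutamyltransferase (Ggt1), which adult hepatocytes hardly express. Many other enzymes of the foci are targets of NRF2, the transcription factor that answers to electrophiles and oxidants. Hepatocytes that dedifferentiate are known to lose P450 enzymes, bile acid transporters and secreted proteins, and dividing cells to gain the cyclins and motor proteins of mitosis.

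Each library was a stranded mRNA library of bulk tissue, with 20528515 to 34629059 read pairs counted on genes in the 12 libraries. All 12 were liver by their markers: albumin (Alb) took 11.7% to 16.9% of the counted pairs. In bulk tissue, fewer cells of a type and less RNA per cell cannot be told apart. Levels are given as counts scaled to library size (CPM), differences as the log2 of nodule over NT liver, and a gene was called at an adjusted p of at most 0.05 with a log2 difference of at least 0.5 in either direction. The p-values measure the spread over these 4 rats.

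Rat F06 stood apart from the other 3 rats. Nodule 1 of F06 had 1352 genes at least 2-fold above its NT liver and 1490 at least 2-fold below, of 11466 genes, and nodule 2 of F06 had 377 and 812. The other 6 nodules had 71 to 314 genes above and 51 to 137 below. In the F06 nodules 34.5% and 28.2% of the read pairs fell outside exons, against 22.95% to 25.5% in the other nodules and 24.4% to 24.9% in the 4 NT livers, and nodule 1 of F06 had the fewest counted pairs. Blood also stood out in these libraries, since haemoglobin beta (Hbb) was at 314 CPM in the NT liver of F06 and at 896 and 653 CPM in its nodules, against 94.4 to 191 CPM in the other 9 libraries. The part of these measures in the results was not tested, and results are given with and without F06.

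**Figure D1:**
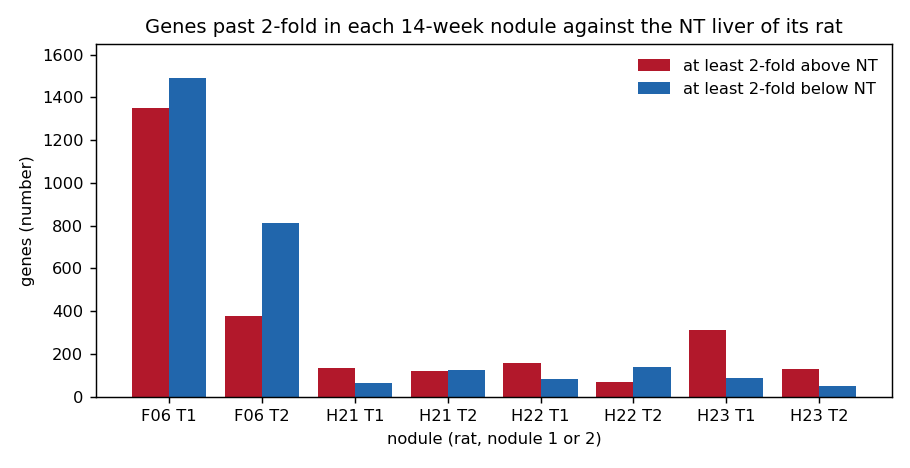
Number of genes, of 11466 tested, at least 2-fold above (red) or below (blue) the NT liver of the same rat, for each of the 8 nodules at 14 weeks. Both F06 nodules stand above the other 6, with 1490 genes below NT in nodule 1 of F06.

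With 4 rats, no gene was called for nodules against NT liver. The paired test, edgeR's quasi-likelihood test with the rat as a block on the summed counts of the 2 nodules of a rat, called 0 of 11466 genes (0.00%), and the lowest adjusted p was 0.167. At an unadjusted p of at most 0.05 there were 1048 genes higher (9.14%) and 1470 lower (12.8%) in the nodules. DESeq2 called 395 of 10559 genes on the same 4 rats, 145 of them higher (1.37%) and 250 lower (2.37%). Without the rat as a block, edgeR also called 0 genes, and 1348 rather than 2518 genes had an unadjusted p of at most 0.05.

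With F06 left out, the same paired test called 300 of 11571 genes. Of these 119 rose (1.03%) and 181 fell (1.56%). Leaving out H21, H22 or H23 in place of F06 left 0 calls each. Of the 300 genes, 298 were also tested with 4 rats, and all 298 had the same direction there. DESeq2 without F06 called 84 of 9934 genes higher (0.846%) and 141 lower (1.42%). DESeq2 with 4 rats, which called 1.37% of all genes higher and 2.37% lower, also called 188 of the 300 genes. It used the libraries that gave the 300, so this overlap is not independent. At 20 weeks 208 of the 300 were called in the same direction, beside 9.21% of all genes called higher and 5.46% lower. Pla2g7, Espn, Cyp2c11 and others with large differences did not pass this test, and their values are given below as values. Calls without F06 below are those of this edgeR test unless DESeq2 is named.

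The direction within each rat was as follows. Of the 11466 genes, 2408 (21%) were higher in the nodules of all 4 rats and 2350 (20.5%) were lower in all 4. In all 8 single nodules, 967 genes (8.43%) were above the NT liver of their rat and 1258 (11%) were below. An exact sign-flip permutation test over 4 rats gives at best a p of 2 in 16, so no gene can pass it alone. These shares are the background against which the gene lists below are read.

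The enzymes of preneoplastic foci lay above NT liver in most nodules. Of 21 such genes tested, 14 had an unadjusted p of at most 0.05 upwards and 1 downwards, 13 were higher in all 4 rats, and 4 were higher in all 8 nodules. The median log2 difference of the list was 0.51 (0.45 without F06), beside 0.01 over all genes tested. By rat the median was 0.69 in F06, 0.13 in H21, 0.44 in H22 and 0.72 in H23.

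Gstp1 stood at 537 CPM in the NT liver of F06, 2046 in H21, 2123 in H22 and 1339 in H23. Its nodules 1 and 2 held 2516 and 1349 CPM in F06, 2831 and 2445 in H21, 3808 and 3233 in H22, and 2795 and 1730 in H23. All 8 nodules were above their own NT liver. Nodule 2 of F06 and nodule 2 of H23 were below the NT liver of H21 and H22, so that the groups overlapped without the pairing. Untreated liver held 8.26 to 11.46 CPM. The log2 difference was 0.89 ± 0.22 (SE, 4 rats), and Gstp1 rose when F06 was left out (0.62, adjusted p = 0.00339 by edgeR).

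Ggt1, the enzyme that breaks down extracellular glutathione, was at 5.15, 26.1, 23.3 and 15.3 CPM in the NT livers of F06, H21, H22 and H23. Nodule 1 held 21.04, 36.6, 46.4 and 42.8 CPM in the same order, and nodule 2 held 11.4, 27.2, 32.9 and 23.8 CPM. Every nodule was again above its own NT liver, with nodule 1 the higher of the 2 in each rat. Untreated liver held 0.264 to 0.617 CPM. The log2 difference of 0.91 ± 0.20 (SE) did not pass, either with 4 rats or without F06 (0.72, adjusted p = 0.127).

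Akr7a3, an aldehyde reductase that acts on aflatoxin metabolites, had a mean of 1024 ± 519 CPM (SD, 4 rats) in NT liver, 1391 ± 575 in the nodules and 60.3 ± 10.2 in untreated liver, with a log2 difference of 0.51 ± 0.11 (SE). It was higher in all 8 nodules, and without F06 its log2 difference was 0.40 with an adjusted p of 0.000612, below the size needed for a call. Nqo1, the quinone reductase, was at 0.65 ± 0.14 on the log2 scale and Akr1b8, an aldo-keto reductase, at 0.96 ± 0.21. Taldo1, an enzyme of the pentose phosphate pathway, was at 0.54. All 3 were higher in at least 7 of 8 nodules. With F06 left out edgeR called 1 member of the list, Gstp1, and DESeq2 called 3 of 20, beside 1.03% and 0.846% of all genes called higher. DESeq2 with 4 rats called 10 of 21, all higher, beside 1.37% of all genes it tested.

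The NRF2 target list, which shares Nqo1 with the foci list, had 13 of 21 genes with an unadjusted p of at most 0.05 upwards and 0 downwards, and its median log2 difference was 0.28 (0.32 without F06). Srxn1, which reduces oxidised peroxiredoxins, was at 0.50 ± 0.09 (SE), Fth1, the heavy chain of the iron store ferritin, at 0.67 and Abcc4, an efflux pump, at 0.36. With F06 left out edgeR and DESeq2 each called 0 of the 21 genes, and DESeq2 with 4 rats called 5, all higher, beside the same 1.37%.

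The promoter of Gstp1 holds a letter match to the core of the antioxidant response element, the DNA element that NRF2 binds. The 60 bases shown are from RefSeq (build GRCr8, chr1:210769732-210769791, minus strand), lie before the start of the gene and are printed because Gstp1 is the member that edgeR called without F06, with the match in capitals, its first base 61 bases before the start.
Gstp1: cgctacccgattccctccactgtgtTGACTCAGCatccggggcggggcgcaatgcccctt
The core searched was TGACNNNGC on either strand in the 250 bases before each start. It was found in 3 of 19 starts of the foci list (18 genes matched by symbol) and 5 of 18 starts of the NRF2 list (17 genes), which is 15.8% and 27.8%, against 10.1% of 33469 starts of all genes. Genes of G2/M and mitosis had it in 6 of 35 starts (17.1%), and genes of S phase in 1 of 27 (3.70%). A match is a description of letters.

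**Figure D2:**
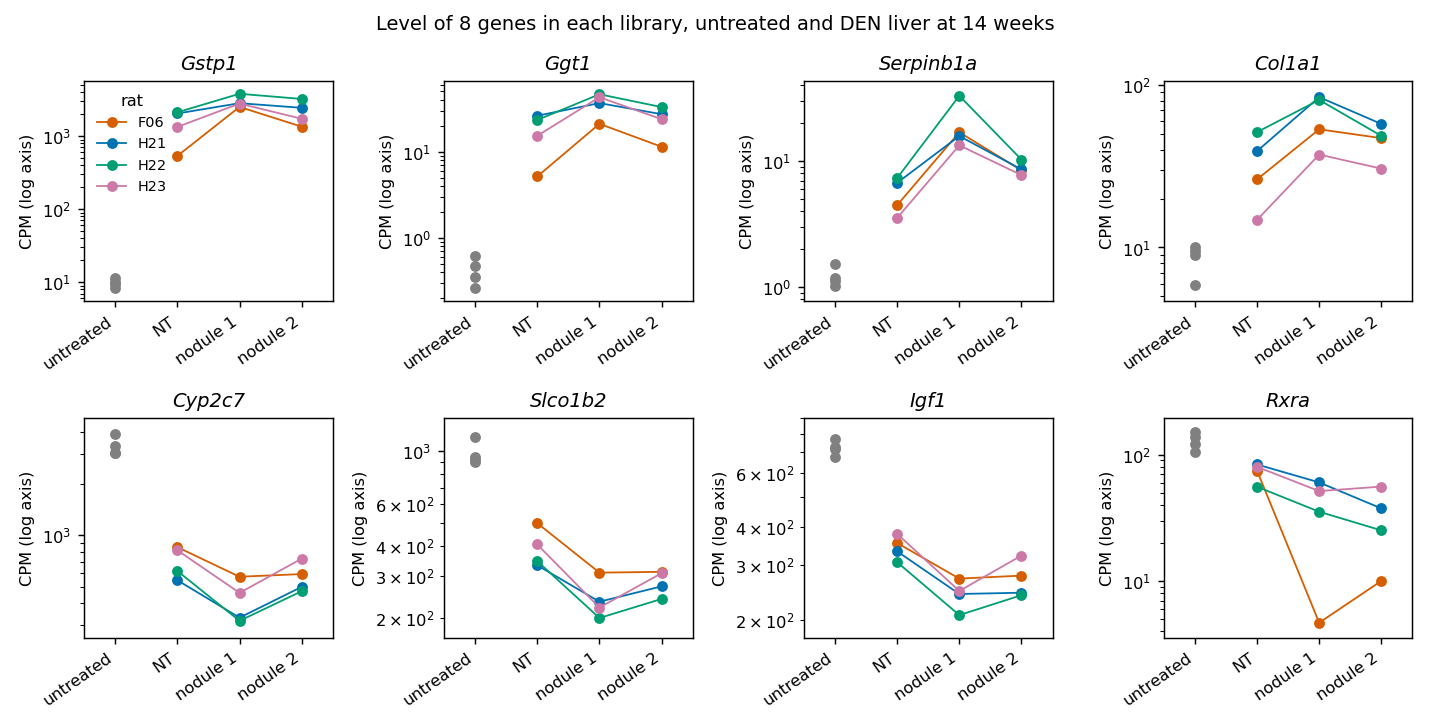
Level of 8 genes in CPM (log axis) in untreated liver (grey, 4 rats) and in NT liver, nodule 1 and nodule 2 of the 4 DEN rats at 14 weeks (a line joins the libraries of a rat). Gstp1 is at 8.26 to 11.46 CPM in untreated liver and at 537 to 2123 CPM in NT liver, and the 3 libraries of F06 fall furthest apart for Rxra.

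Beyond the lists, the 12 largest rises were taken among genes that were above NT liver in all 8 nodules. They were Dnaaf1, Espn, Pla2g7, Nefl, Serpinb1a, Cdhr5, Fam83f, Defb1, Fam227a, Cdkn2a, Sema3b and Trem2, with log2 differences of 1.80 down to 1.13. Since size and direction chose them, these values and the calls without F06 are a description. With F06 left out 4 of the 12 were called, namely Serpinb1a, Nefl, Fam227a and Cdkn2a.

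Serpinb1a, an inhibitor of neutrophil proteases, was at 4.47, 6.72, 7.33 and 3.54 CPM in the NT livers of F06, H21, H22 and H23. Nodule 1 held 16.97, 15.8, 33.1 and 13.4 CPM and nodule 2 held 8.44, 8.59, 10.3 and 7.75 CPM. The 8 nodules lay above all 4 NT livers, and untreated liver held 1.02 to 1.53 CPM. Its log2 difference was 1.33 ± 0.14 (SE) with 4 rats and 1.31 without F06 (adjusted p = 0.000991).

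Dnaaf1, needed to assemble the dynein arms of cilia, was at 2.28, 25.1, 39.6 and 10.5 CPM in NT liver. Nodule 1 held 17.4, 81.9, 158 and 69.0 CPM and nodule 2 held 14.0, 39.6, 50.4 and 21.01 CPM. In untreated liver 3 of 4 rats had 0 counts and the other was at 0.0782 CPM. The difference between rats in NT liver was larger than the difference between tissues in a rat.

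Nefl, the light neurofilament chain, had the same order of rats, with 2.35, 29.3, 43.8 and 13.5 CPM in NT liver. Nodule 1 held 18.2, 66.9, 191 and 49.1 CPM and nodule 2 held 6.31, 38.2, 66.3 and 19.03 CPM. It rose by a log2 difference of 1.24 without F06 (adjusted p = 0.00976). Cdkn2a, which encodes the cell cycle inhibitors p16 and ARF, was low throughout, at a mean of 0.728 ± 0.542 CPM (SD) in NT liver and 0.0485 ± 0.0356 in untreated liver. It rose by 0.96 without F06 (adjusted p = 0.0223).

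Of the 12 largest falls among genes below NT liver in all 8 nodules, 11 are reported here. They were Kcnj15, Slc7a2, Slc6a6, A1cf, Ak4, Rgs16, Rxra, Palm2, Ndst1, Esr1 and St3gal1, with log2 differences of -1.70 to -1.26. They included transporters for cationic amino acids (Slc7a2) and taurine (Slc6a6), and the nuclear receptors Rxra and Esr1. F06 carried the largest fall of the 4 rats for all 11 (-3.33 to -2.26 with its nodules summed), as the map of the 23 genes shows. Size and direction in these same nodules chose the 11 genes, so their values and the calls without F06, 10 of the 11 with Rgs16 the exception, are a description.

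Slc6a6 was at 35.01, 40.2, 34.3 and 42.2 CPM in the NT livers of F06, H21, H22 and H23. Nodule 1 held 2.40, 20.7, 18.1 and 18.3 CPM and nodule 2 held 5.91, 17.9, 16.2 and 24.8 CPM. All 8 nodules were below all 4 NT livers, and those of F06 were the lowest. Untreated liver held 32.9 to 61.3 CPM. The log2 difference was -1.49 ± 0.37 (SE) with 4 rats and -1.02 without F06 (adjusted p = 2.56e-06).

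Rxra, the partner of PPAR-alpha, FXR and other liver nuclear receptors, was at 74.8, 83.7, 55.7 and 80.1 CPM in NT liver. Nodule 1 held 4.67, 60.3, 35.3 and 51.5 CPM and nodule 2 held 10.01, 37.5, 25.1 and 55.9 CPM. The nodules of F06 were at less than any other nodule, and the remaining 6 nodules were 0.47 to 1.16 below their NT liver on the log2 scale. The log2 difference was -1.33 ± 0.47 (SE) with 4 rats and -0.75 without F06 (adjusted p = 6.35e-05).

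**Figure D3:**
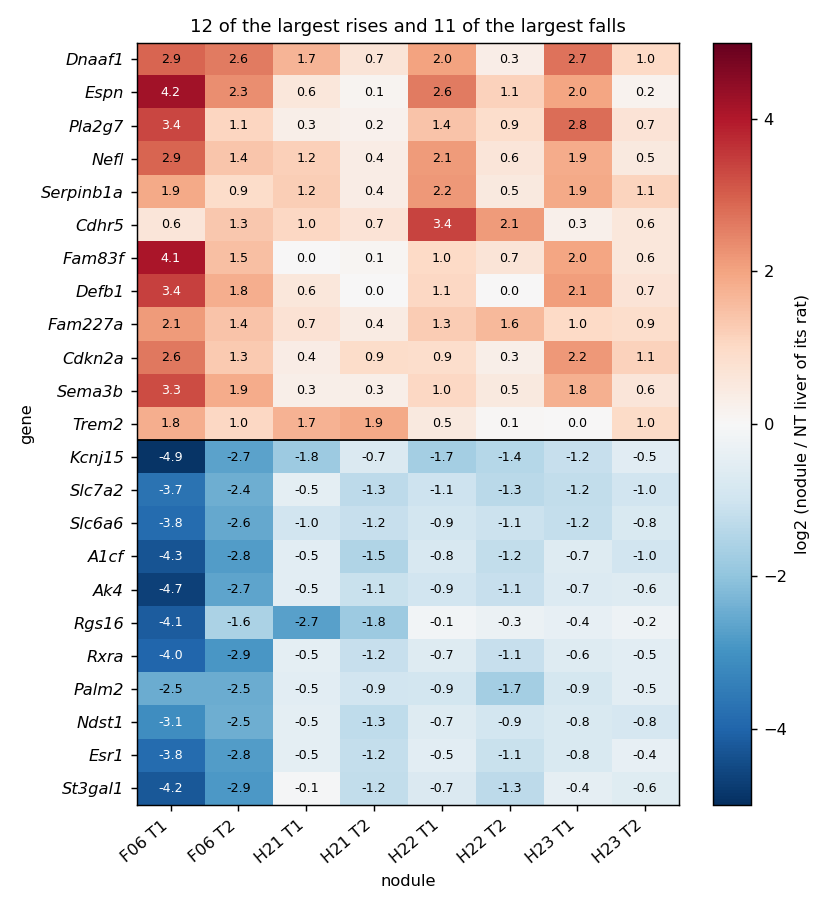
Log2 of nodule over the NT liver of the same rat for the 12 largest rises (top) and 11 of the 12 largest falls (bottom) among genes on one side of NT liver in all 8 nodules. The falls are deepest in the F06 columns, for example -3.98 for Rxra in nodule 1 of F06.

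The drug-metabolising enzymes of the hepatocyte lay below NT liver. Of 40 P450s and conjugating enzymes tested, 23 had an unadjusted p of at most 0.05 downwards and 3 upwards, 22 were lower in all 4 rats, and 15 were lower in all 8 nodules. The median log2 difference was -0.33 (-0.30 without F06). By rat it was -0.26 in F06, -0.22 in H21, -0.36 in H22 and -0.33 in H23. With F06 left out 5 of them fell (Cyp2c7, Cyp3a2, Cyp4a2, Cyp4a3 and Sult1e1) and 0 rose, beside 1.56% and 1.03% of all genes. That count depended on the nodule, with 20 of 40 lower for nodule 1 alone and 1 of 39 for nodule 2 alone, both without F06. Over all genes, 224 of 11336 were lower for nodule 1 alone and 364 of 11340 for nodule 2 alone. Pairs that mapped to several places were not counted, and members of the Cyp2c, Cyp3a and Cyp4a families are close copies, so the split between them is uncertain.

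Cyp2c7, a growth hormone-dependent P450, was at 853, 547, 619 and 817 CPM in the NT livers of F06, H21, H22 and H23. Nodule 1 held 573, 330, 317 and 461 CPM and nodule 2 held 594, 500, 472 and 731 CPM. All 8 nodules were below their own NT liver, and untreated liver held 3032 to 3896 CPM. The log2 difference was -0.54 ± 0.07 (SE) with 4 rats and -0.51 without F06 (adjusted p = 0.0001). Cyp2c11, the male-specific P450, was at -0.85 ± 0.12 (SE) and below NT liver in all 8 nodules, but was not called without F06 (adjusted p = 0.0706). Cyp3a2 fell by 0.71 on the log2 scale without F06 (adjusted p = 1.63e-05).

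Bile acid synthesis and transport gave a like picture, with 16 of 22 genes at an unadjusted p of at most 0.05 downwards and 0 upwards, and a median of -0.28 (-0.20 without F06). The uptake carrier Slco1b2 was at 499, 333, 346 and 406 CPM in NT liver. Nodule 1 held 310, 234, 200 and 221 CPM and nodule 2 held 312, 271, 241 and 308 CPM. The 8 nodules were below all 4 NT livers, and untreated liver held 898 to 1147 CPM.

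Slco1b2 fell by 0.56 and its relative Slco1a1 by 0.63 on the log2 scale without F06 (adjusted p = 9.16e-05 and 5.17e-05), and no other member was called. With nodule 1 alone and F06 left out 9 of 22 members were lower, beside 224 of all 11336 genes. With nodule 2 alone and F06 left out 1 of 22 was lower, beside 364 of all 11340 genes. Cyp7a1, the rate-limiting enzyme of bile acid synthesis, was at -0.40 ± 0.07 (SE) and lower in all 8 nodules, below the size needed for a call. Cyp7a1 in NT liver, 83.9 ± 35.9 CPM (SD), lay close to untreated liver, 63.1 ± 16.2 CPM, whereas Cyp2c7 and Slco1b2 in NT liver were below every untreated liver.

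The other hepatocyte lists also lay below NT liver by their medians. Urea cycle and amino acid breakdown had 20 of 32 genes at an unadjusted p of at most 0.05 downwards and 0 upwards (median -0.22, and -0.21 without F06), among them Hal, Gls2, Kynu and Bhmt at -0.43, -0.42, -0.40 and -0.36. Acute phase, complement and iron genes had 17 of 28 downwards and 2 upwards (median -0.27, and -0.18 without F06). Fatty acid oxidation and ketogenesis had 15 of 31 downwards and 1 upwards (median -0.16).

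Hepatocyte transcription factors and secreted proteins had 13 of 27 downwards and 1 upwards, with a median of -0.23 that was -0.12 without F06. By rat the median was -0.42 in F06 and -0.21 to -0.13 in the other 3. The 1 upwards was Apoa1, the main apolipoprotein of HDL, at 0.49 ± 0.08 (SE) and higher in all 8 nodules. Onecut1, Prox1, Ppara and Rxra of that list fell without F06. Hnf4a, the master regulator of hepatocyte genes, was at -0.30 ± 0.08 and lower in all 8 nodules, and Alb was at -0.25 ± 0.10 and lower in 6 of 8. Pericentral genes had 9 of 19 downwards and 1 upwards (median -0.27), and periportal genes 10 of 20 and 0 (median -0.20), so that both zones of the lobule were on the same side.

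Growth factor receptors and the IGF axis had 14 of 28 genes at an unadjusted p of at most 0.05 downwards and 2 upwards, with a median of -0.25 (-0.22 without F06). Without F06, the receptors Egfr, Erbb3, Met, Igf1r and Insr fell, 5 of the 28, and 0 rose, beside 1.56% and 1.03% of all genes. Igf1, the growth hormone-driven factor secreted by hepatocytes, was at 355, 333, 308 and 380 CPM in the NT livers of F06, H21, H22 and H23. Nodule 1 held 272, 243, 207 and 248 CPM and nodule 2 held 278, 245, 240 and 323 CPM.

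All 8 Igf1 values were below their own NT liver, and untreated liver held 675 to 769 CPM. Its log2 difference of -0.45 ± 0.06 (SE) was below the size needed for a call, with an adjusted p of 0.000105 without F06. Egfr was at 70.3, 83.4, 52.2 and 56.1 CPM in NT liver, and its log2 difference was -0.84 ± 0.21 (SE) with 4 rats and -0.56 without F06 (adjusted p = 8.79e-05).

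**Figure D4:**
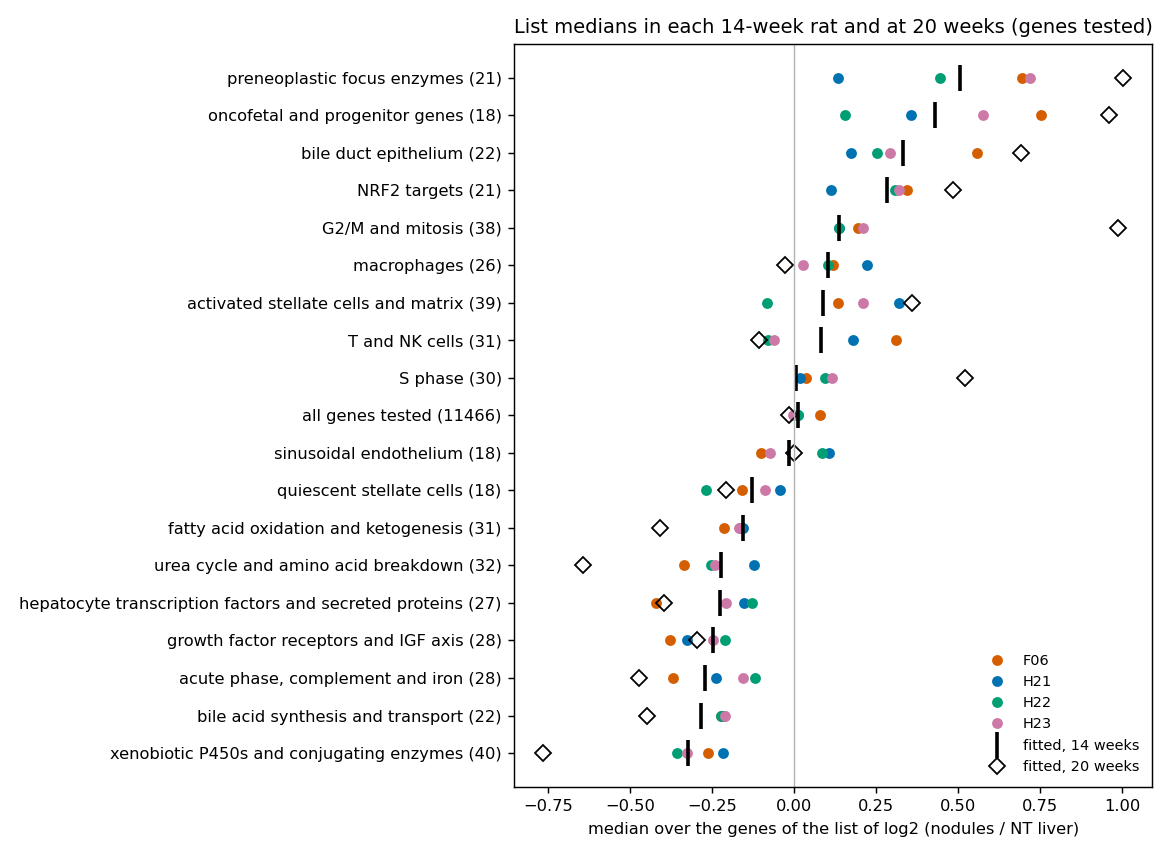
Median over the genes of each list of the log2 of nodules over NT liver, for each of the 4 rats at 14 weeks (coloured points) and from the fits at 14 weeks (bars) and 20 weeks (diamonds), with the number of genes tested. The list medians of foci enzymes are 0.13 to 0.72 in the 4 rats, and those of P450s and conjugating enzymes -0.36 to -0.22.

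Progenitor and bile duct genes lay above NT liver by their medians. Of 18 oncofetal and progenitor genes tested, 10 had an unadjusted p of at most 0.05 upwards and 0 downwards (median 0.43, and 0.37 without F06), and of 22 bile duct genes 11 and 1 (median 0.33, and 0.27 without F06). Higher in all 8 nodules were 0 of the 18 and 4 of the 22, beside 8.43% of all genes. Cd24, a surface protein of progenitor cells that is on both lists, was at 0.54 ± 0.11 (SE), Sox4 at 0.45 and Epcam at 0.31. Krt19, the keratin of bile ducts, was at 6.45, 29.1, 35.6 and 16.01 CPM in NT liver. Its nodules 1 held 25.02, 23.6, 45.1 and 99.3 CPM and its nodules 2 held 13.5, 30.5, 49.4 and 30.03 CPM.

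Nodule 1 of H21 was below its NT liver for Krt19, and nodule 1 of H23 was more than any other library. Afp, the fetal albumin relative, was at 0.20 ± 0.11 (SE), with 22.95 to 26.8 CPM in NT liver and 31.4 to 37.05 CPM in untreated liver. Gpc3, the oncofetal glypican, was at 0.29 ± 0.14 (SE). Without F06 the calls of edgeR on these lists were Cldn4 and Sctr, both bile duct genes that rose, and DESeq2 called 0. Over all genes edgeR called 1.03% higher without F06. With 4 rats DESeq2 called 3 of 17 oncofetal and progenitor genes and 2 of 22 bile duct genes, all higher. Over all genes it tested, 1.37% were called higher. The 4 bile duct markers found came together to 40.6 to 93.9 CPM in NT liver, 62.7 to 158 CPM in the nodules and 17.3 to 25.2 CPM in untreated liver. Their sum was above the NT liver of the same rat in all 8 nodules, by least in nodule 2 of H21 (86.6 against 86.1 CPM).

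Genes of the stroma and of immune cells differed from list to list. Of 39 genes of activated stellate cells and matrix, 10 had an unadjusted p of at most 0.05 upwards and 2 downwards (median 0.09). Col1a1, a chain of fibrillar collagen, was at 26.2, 39.1, 51.2 and 14.8 CPM in NT liver. Nodule 1 held 53.3, 84.0, 80.8 and 37.3 CPM and nodule 2 held 47.0, 57.5, 48.6 and 30.5 CPM. Of the 8 nodules, 7 were above their NT liver, the other being nodule 2 of H22. The log2 difference was 0.80 ± 0.15 (SE), and it did not pass without F06 (0.77, adjusted p = 0.175).

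T and NK cell genes had 0 of 31 genes at an unadjusted p of at most 0.05 in either direction by edgeR, and DESeq2 called 0 of the 21 it tested. Their 5 marker genes together came to 5.38 to 10.9 CPM in NT liver and 4.52 to 14.0 CPM in the nodules, so a change in so few transcripts may not have been detectable at this depth. Macrophage genes had 5 of 26 upwards and 0 downwards (median 0.10), and their 6 markers together came to 379 to 855 CPM in NT liver and 368 to 858 CPM in the nodules, with F06 the highest in both. Sinusoidal endothelium had 0 of 18 upwards and 1 downwards.

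MHC and antigen presentation had 9 of 20 upwards and 1 downwards (median 0.24, and 0.13 without F06), and F06 gave the highest median (0.53, against 0.02 to 0.21 in the other 3 rats). Class I genes of the rat (the RT1 genes) are close copies, so values of single members are uncertain. Interferon-stimulated genes had 3 of 37 upwards and 5 downwards (median 0.06, and -0.02 without F06). Cd274, which encodes PD-L1, was at 0.913 to 1.65 CPM in NT liver and 0.2999 to 0.899 CPM in the nodules, and fell by 0.80 on the log2 scale without F06 (adjusted p = 0.0238). Ccl19, a chemokine that draws lymphocytes and dendritic cells, rose by 0.60 without F06 (adjusted p = 0.0195).

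The study followed a set of genes one by one, by antibody, by qPCR or in its own RNA-seq data. Of the 28 tested here, 7 had an unadjusted p of at most 0.05 upwards and 4 downwards (median 0.09). Since the study chose them, some of them on these samples, their direction is not independent evidence. Above NT liver were Gstp1, Col1a1, Acta2 (0.68 ± 0.20, SE), Timp1 (0.52), Cd44 (0.36), Cd276 (0.25) and Cd68 (0.22). Below it were Pzp (-0.43), Vipr1 (-0.40), Cyp1a2 (-0.32) and Bco2 (-0.17).

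With 4 rats edgeR called 0 of the 28, and without F06 it called Gstp1. The genes with an unadjusted p above 0.05 were Ccnd1 at -0.09, Mki67 at 0.14, Mmp2 at 0.12, Mmp9 at 0.38, Tgfb1 at 0.22, Prom1 at 0.33, Cd34 at 0.01, Cd3e at 0.10, Cd4 at -0.16, Cd8a at 0.08, Cd48 at -0.20, Ptprc at -0.03, Foxp3 at 0.21, Tnfrsf9 at 0.04, Lgals9 at 0.02, Cxcl14 at -0.03 and Pth1r at -0.01. Il2ra, Il10, Ifng and Il4 were too low to be tested, at no more than 0.2999 CPM in any of the 12 libraries, and Tnf had 0 counts.

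Markers of neighbouring tissue moved with the nodules in part. Cpa1, a digestive enzyme of the pancreas, had the largest rise of all 300 genes called without F06 (log2 difference 2.18, adjusted p = 0.0115), and Ctrc, another, was also among them. Cpa1 was at 0.0978, 0.513, 1.98 and 0.267 CPM in NT liver. Nodule 1 held 0.2999, 6.16, 9.23 and 4.09 CPM and nodule 2 held 0.142, 0.248, 1.86 and 1.05 CPM. Prss1, the main trypsinogen, had 0 counts in all 12 libraries. The list of tissues near the liver had 2 of 11 genes at an unadjusted p of at most 0.05 upwards and 0 downwards. Its median was 0.46 (0.24 without F06), and by rat it was 0.79 in F06, 0.55 in H21, -0.18 in H22 and 0.39 in H23. The 6 blood and neighbouring-tissue markers together, mostly Hbb, came to 106 to 327 CPM in NT liver and 110 to 927 CPM in the nodules, and their part in the results was not tested.

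The remaining lists had medians from -0.15 to 0.30. Genes over-expressed in human hepatocellular carcinoma, a list that the study took from data of human tumours, had 9 of 22 at an unadjusted p of at most 0.05 upwards and 0 downwards (median 0.30), with 16 higher in all 4 rats. Immediate early and heat shock genes had 7 of 24 upwards and 0 downwards (median 0.28), and chemokines and checkpoint molecules 8 of 24 and 2 (median 0.11). Cholesterol and fatty acid synthesis had 2 of 33 upwards and 10 downwards (median -0.15, and -0.06 without F06), and in F06 the median was -0.50 against -0.16 to -0.01 in the other rats. Glycolysis and gluconeogenesis isozymes had 4 of 29 and 8 (median -0.07, and 0.01 without F06), and without F06 the hexokinase Hk1 and the phosphofructokinase Pfkp rose while G6pc, which releases glucose, fell.

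Hypoxia genes had 4 of 17 upwards and 1 downwards, p53 targets 3 of 22 and 3, MYC targets and ribosome biogenesis 4 of 25 and 0, and oxidative phosphorylation 1 of 31 and 1, with medians between -0.03 and 0.09. Signals of the TGF-beta, Wnt, Notch and Hedgehog families had 5 of 35 upwards and 7 downwards (median 0.00, and -0.06 without F06), and without F06 Inhbb rose while Inhba, Gli3 and Hhip fell. Quiescent stellate cells had 1 of 18 upwards and 5 downwards, vascular endothelium 3 of 28 and 2, B and plasma cells 1 of 10 and 0, and neutrophils and mast cells 1 of 12 and 0.

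Nodule 1 differed more from NT liver than nodule 2 in the P450s and conjugating enzymes and in the enzymes of foci. The list median of the P450s and conjugating enzymes was -0.45, -0.48, -0.62 and -0.57 in nodule 1 of F06, H21, H22 and H23, and -0.27, -0.05, -0.19 and -0.10 in nodule 2. For the enzymes of foci it was 0.92, 0.26, 0.52 and 1.03 in nodule 1 and 0.42, -0.11, 0.33 and 0.23 in nodule 2. In both lists the median was further from 0 in nodule 1 in all 4 rats. Calls without F06 also depended on the nodule. With nodule 1 alone edgeR called 3 foci enzymes, 4 NRF2 targets, 5 oncofetal and progenitor genes and 6 matrix genes higher, and 9 urea cycle and 7 pericentral genes lower. Over all genes that fit called 229 higher and 224 lower of 11336. With nodule 2 alone the counts were 0, 0, 0 and 1 higher and 1 and 0 lower, and 1 NRF2 target was lower. Over all genes nodule 2 alone gave 39 higher and 364 lower of 11340. Some lists had more lower calls with nodule 2 than with nodule 1. They included hepatocyte transcription factors and secreted proteins (5 against 3) and cholesterol and fatty acid synthesis (3 against 0). The TGF-beta, Wnt, Notch and Hedgehog list gave 4 against 3. Other list medians did not all lie further out in nodule 1. The median of the pericentral genes in F06 was 0.05 in nodule 1 and -0.25 in nodule 2, and that of the cholesterol and fatty acid genes in H21 was 0.00 and -0.05. The labels used here do not say how the 2 nodules of a rat were numbered, and no test was made of this difference. The 11 falls went the other way in H21 and H22, where nodule 1 was the less changed for 9 and 10 of the 11 genes.

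Mitotic genes lay slightly above NT liver at 14 weeks. Of 38 genes of G2/M and mitosis, 10 had an unadjusted p of at most 0.05 upwards and 0 downwards, 20 were higher in all 4 rats and 11 in all 8 nodules, yet the median log2 difference was only 0.14 (0.18 without F06). Mki67, the marker of cycling cells, was at 25.9, 49.7, 59.6 and 41.5 CPM in NT liver. Nodule 1 held 33.4, 52.9, 61.6 and 52.2 CPM and nodule 2 held 35.8, 44.0, 62.5 and 43.1 CPM. The tissues overlapped, whereas untreated liver held 4.26 to 7.195 CPM. Genes of S phase had 2 of 30 upwards and 1 downwards (median 0.00, and 0.08 without F06).

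After 6 weeks without DEN the picture differed. At 20 weeks the paired test called 1063 genes higher (9.21%) and 630 lower (5.46%) of 11546, and 36 of the 38 mitotic genes were among the higher, with a median log2 difference of 0.99. The foci enzymes had 15 of 21 genes called higher and 1 lower (median 1.00), and the P450s and conjugating enzymes 27 of 39 lower and 3 higher (median -0.77). The NT library of H26 had 160622633 counted pairs, far more than the others, and without H26 the test called 1070 genes in place of 1693.

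The change in the nodule difference between the times was itself tested, and 53 of 11781 genes were called (0.45%). All 53 had a lower log2 difference at 14 weeks than at 20 weeks, and 21 of them were on the G2/M list. This count depended on the libraries. It was 187 without F06, 7 to 13 without any one of H21, H22, F03, H25, H26 or H28, 0 with nodule 1 alone and 1658 with nodule 2 alone. DESeq2 called 241 genes. Higher at 14 weeks than at 20 weeks were 14 of the 241, 2 of the 187 and 708 of the 1658, which is 0.121%, 0.0168% and 6.15% of the genes tested in each fit. The number of mitotic genes called was 3 to 31 when a rat was left out, while their median difference between the times stayed between -0.86 and -0.81.

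Ccnb1, the mitotic cyclin, had a log2 difference of 0.22 ± 0.07 (SE) at 14 weeks and 1.36 at 20 weeks, which differed by -1.14 ± 0.10 (SE, adjusted p = 0.00271). Its level in NT liver was 22.9 ± 8.20 CPM (SD, 4 rats) at 14 weeks and 6.26 ± 3.82 at 20 weeks, and in the nodules 26.8 ± 8.80 and 16.02 ± 8.34. Mki67 in NT liver was at 44.2 ± 14.2 CPM at 14 weeks and 15.6 ± 6.50 at 20 weeks, and in the nodules at 48.4 ± 11.2 and 32.6 ± 15.0. Both means were lower at 20 weeks in both tissues, and the levels themselves were not tested between the times. Different rats were used at the 2 times, and the time since the last injection differed with them, so age and withdrawal of DEN cannot be told apart.

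Among the 53 called genes, the 5 with the largest such differences at a mean of at least 1 CPM were Npy1r, Ddr1, Tgfb2, Tubb6 and Cenpf, all lower at 14 weeks. With all 8 rats edgeR called 0 genes in the other direction, where 643 had an unadjusted p of at most 0.05. Ddr1, a collagen receptor, was at 0.58 on the log2 scale at 14 weeks and 2.09 at 20 weeks (difference -1.52, adjusted p = 0.00546). Tubb6, a tubulin, was at 0.59 and 1.93 (adjusted p = 0.00395). Ddr1 and Tubb6 were called in 12 of 13 alternative fits each. Npy1r, a neuropeptide Y receptor, was at 0.35 and 2.40 (adjusted p = 0.0291), but was called in only 5 of 13, and Tgfb2 and Cenpf in 6 of 13 each. Enzymes of foci were further from NT liver at 20 weeks as well, but with all 8 rats edgeR called 0 of the 21 for the difference (median -0.59), and 14 were lower at 14 weeks at an unadjusted p of at most 0.05. DESeq2 called 6 lower at 14 weeks, beside 1.95% of all genes, and edgeR without F06 called 4 lower, beside 1.56%. With nodule 2 alone edgeR called 9 lower and 1 higher, beside 8.26% and 6.15%. Gstp1, at 0.89 and 1.47, differed by -0.59 ± 0.30 (SE, adjusted p = 0.439).

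Among the mitotic genes called for the difference between times, 8 of the 18 with a promoter in the RefSeq table held the letters of the cell cycle genes homology region, the element through which the MuvB complex holds mitotic genes down in resting cells. The 4 with the smallest p are shown as 60 bases before the start (build GRCr8), with each match in capitals. They are Prc1 (chr1:143659421-143659480, plus strand), Cdc20 (chr5:137255818-137255877, minus strand), Mki67 (chr1:199952660-199952719, minus strand) and Cdk1 (chr20:19265233-19265292, plus strand).
Prc1: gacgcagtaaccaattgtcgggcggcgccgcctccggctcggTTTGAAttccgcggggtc
Cdc20: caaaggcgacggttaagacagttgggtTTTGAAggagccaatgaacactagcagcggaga
Mki67: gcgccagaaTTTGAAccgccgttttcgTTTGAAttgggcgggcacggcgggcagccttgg
Cdk1: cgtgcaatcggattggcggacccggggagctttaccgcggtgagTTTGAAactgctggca
The capitals start 18, 51 and 16 bases before the start of Prc1, Cdc20 and Cdk1. Mki67 holds 2 matches, which start 117 and 99 bases before its start, and Cdk1 holds another outside the bases shown. TTTGAA, searched on both strands in the 250 bases before each start, was in 17 of 35 starts of the G2/M list (48.6%), in 2 of 27 starts of the S phase list (7.41%) and in 16.2% of the 33469 starts of all genes. The list was drawn up from genes known to act in mitosis, and a match is a description of letters.

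**Figure D5:**
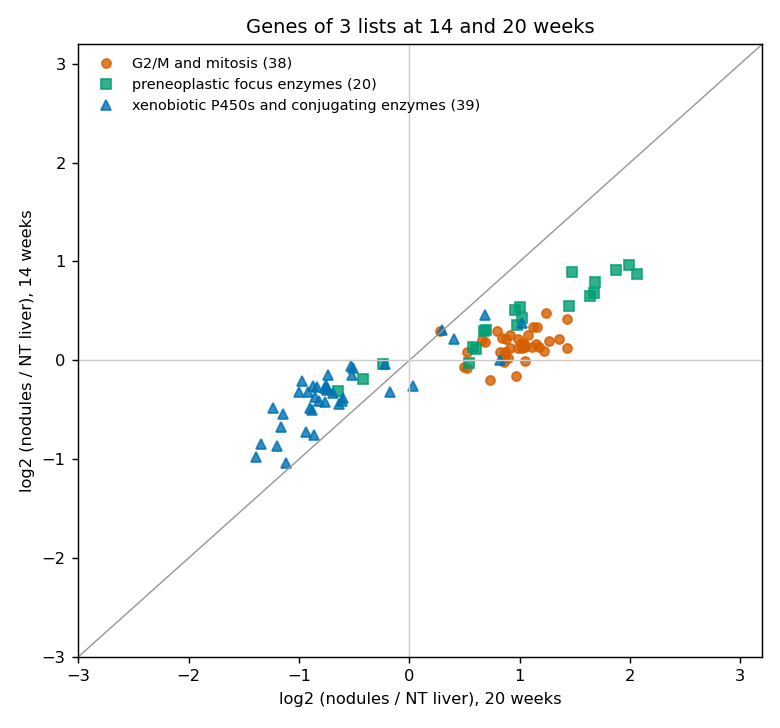
Log2 of nodules over NT liver at 20 weeks (x axis) and at 14 weeks (y axis) for single genes of 3 lists, with the line of equal values. Mitotic genes (orange) sit near 0 at 14 weeks and near 1 at 20 weeks (medians 0.14 and 0.99), and P450s and conjugating enzymes (blue) lie mostly below 0 at both times (medians -0.33 and -0.77).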

How the data were processed

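RNA of NT liver and of 2 nodules per rat was sequenced as stranded mRNA libraries. Per the labels and the submitters' processing notes, reads were aligned to the rat genome rn6 with STAR 2.7.1a, and the deposited values are raw counts of read pairs per gene that the authors made with HTSeq, counting on exons by strand and leaving out pairs that mapped to several places. The notes also name DESeq2 1.22.2. Lines that name no gene were removed before use. In the 12 libraries pairs outside exons were 22.95% to 34.5%, and pairs at several places 7.96% to 10.9%, of all pairs. Depth was 20528515 to 34629059 counted pairs per library, and the counting error it leaves does not cover the spread between rats.

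For each rat, nodule 1 and nodule 2 were added up gene by gene and set against NT liver of that animal in edgeR 4.0.16 (R 4.3.3; filterByExpr, TMM, quasi-likelihood F test, rat as block, Benjamini-Hochberg adjustment over all genes tested). The rat number in the labels names 1 animal, and deviations of nodules and NT liver from their group means correlated within each rat (r = 0.37 to 0.54 across 11466 genes, which are not independent). The same fit was made for the 4 rats at 20 weeks, and the difference between times was tested in 1 fit of all 8 rats. Levels in CPM used TMM factors of 28 libraries, and log2 ratios per rat a prior count of 2. The script was tested on simulated data with less spread than the 14-week fit and with no rat set apart. That test does not show what could be detected in these rats. Alternatives were DESeq2 1.42.0, no block, single nodules, each nodule alone, RLE scaling, no filter, both times in 1 fit and leaving out each rat. Fits without F06 beyond these were chosen after seeing the data.

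Members, gene lists (37) and tests were chosen with earlier results of these data known. Named genes were the 12 largest rises and falls among genes with a mean of at least 1 CPM over the 12 libraries and all 8 nodules on one side, the 5 largest differences between times among genes called for it, up to 4 genes per list with the smallest p, genes that define a list, and the genes the study followed one by one by antibody, qPCR or RNA-seq. Of these, 2 genes are not reported here. List members called without F06 (5 or fewer per list), Cd274, Ctrc and Mki67's levels at 20 weeks were named after their values were seen. Promoters are RefSeq's (GRCr8), matched by symbol, and the files use rn6, so no coordinates were carried between the 2 builds. Gene lengths of rn6 were not used here, so levels are not compared between genes.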

Additional observations from a re-analysis of the deposited data

Results flagged for a closer look

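Among 4 rats, 1 rat lay far from the others, by the gap to its nearest neighbour as a share of the range (Dixon's 95% value), for 6 of the 23 named genes with the largest differences, and it was F06 each time: Slc6a6 (0.967), A1cf (0.9), Ak4 (0.848), Rxra (0.881), Ndst1 (0.998) and Esr1 (0.907). H21 lay far below the other 3 rats for the median of the NRF2 targets (0.84). Among the 8 nodules, nodule 1 of F06 lay far above the others for the share of pairs outside exons (0.548) and for the SD of its log2 ratios (0.527). Among the 4 NT livers, H22 had the lowest depth (0.887), and H23 had the highest share outside exons (0.956), although the 4 shares were only 24.4% to 24.9%. In all, 71 such checks gave 11 flags, and chance flags about 1 in 20 groups. The 6 flagged genes were chosen by their size in these same 4 rats, so that rate does not hold for them.

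The nodule difference differed between 14 and 20 weeks for 53 genes, and each of the 5 largest was lower at 14 weeks: Npy1r (log2 difference of differences -2.05), Ddr1 (-1.52), Tgfb2 (-1.34), Tubb6 (-1.34) and Cenpf (-1.32).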

How the results depend on the processing

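The number of genes called at 14 weeks was 0 with 4 rats, and stayed at 0 without the replicate block, with each nodule alone, with RLE scaling and with no filter. It was 1 with single nodules, 1 with both times in 1 fit, 395 with DESeq2, and 0 to 300 when a rat was left out (300 without F06). In fits chosen after seeing the data, it was 225 with DESeq2 without F06, 453 and 403 with nodule 1 and nodule 2 alone without F06, and 0 with F06 given by nodule 2 only. The number of genes at an unadjusted p of at most 0.05 fell from 2518 to 1348 without the block and to 1618 with nodule 1 alone, rose to 3650 with nodule 2 alone, 3160 with single nodules and 3393 with both times in 1 fit, and was 1246 to 3412 when a rat was left out. Genes higher or lower in all 4 rats numbered 2408 and 2350, against 967 and 1258 in all 8 nodules and 1183 and 1476 in the 6 nodules of the other 3 rats. At 20 weeks the count of 1693 was 0 without the block and 1070 to 2078 when a rat was left out. The difference between times gave 241 genes with DESeq2, 0 with nodule 1 alone, 1658 with nodule 2 alone and 7 to 187 when a rat was left out. The causes were not tested. The 23 named genes with the largest differences kept their direction in every alternative fit. They were chosen with all 8 nodules on the same side of NT liver, which largely fixed this outcome in advance. List medians moved by less than 1 SD over rats in 227 of 259 alternative values, and the larger moves were mostly with 1 nodule alone: 0.50 and 0.06 for NRF2 targets and -0.53 and -0.17 for P450s and conjugating enzymes with nodule 1 and nodule 2.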
